A study of Drosophila melanogaster with 2 samples.

Results

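The protein-coding genes of chromosome 4 of Drosophila melanogaster were examined for promoter binding by MESR4, which carries PHD and zinc finger domains and acts in the nucleus. The Ensembl annotation places 80 protein-coding genes there, and 73 of them were members here. The other 7 (ci, pan, RpS3A, ND-49, ATPsynbeta, eIF4G1 and apolpp) were left out by the rule that set the members. The 6 main chromosome arms together hold 13834 protein-coding genes, so the members were set against the 13754 genes of the other 5 arms. A gene was called bound when a summit of the deposited list thresholded on the irreproducible discovery rate (IDR), a measure of how well peak ranks repeat between replicates, lay within 500 bp of any of its transcription start sites (TSSs).

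The assay was chromatin immunoprecipitation followed by sequencing (ChIP-seq) on whole embryos of mixed sex, aged 0 to 24 h, from a stable transgenic line that carries MESR4 with GFP fused to its C terminus. There was 1 group, with 2 biological replicates numbered 1 and 3, and chromatin was sonicated to 200 to 800 bp. Both samples carry the tagged transgene, and no untagged or untreated embryos were analysed here, so no group comparison was possible. The free text of the labels describes both samples as input controls, but their antibody label reads MESR4 and the deposited file listing sets each replicate against a separate control alignment. They were therefore read as MESR4 precipitates. All cells of the embryo were pooled, so a peak in few cells and a weak peak in many cells cannot be told apart. The sources used here do not state the read depth, and a gene without a listed summit was only below what the list holds.

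Chromosome 4 is the small dot chromosome of the fly. Most of it is packaged with the heterochromatin protein HP1a and with methylated histone H3 lysine 9, it is dense in transposon remnants, and it hardly recombines, yet many of its genes are active. The protein POF is known for binding its active genes. Its genes include regulators of eye and wing development, synaptic proteins, axon guidance receptors and many broadly used housekeeping proteins. Promoters of broadly used fly genes often carry the DNA replication-related element (DRE), bound by DREF, or Motif 1, bound by M1BP, whereas GAGA factor binds GAGA elements at many developmental promoters.

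Of the 73 members, 42 were bound (57.5%, 95% Clopper-Pearson interval 45.4 to 69.0%), against 42.5% of the genes of the other arms, where single arms ran from 40.9% on 3L to 44.5% on X. The interval covers the counting of genes, treated as independent, and not the variation between embryos. All 7 left-out genes were bound too, so the whole chromosome came to 49 of 80 genes (61.3%). Each replicate gave a like share when its own 6415 strongest summits, the length of the thresholded list, were used. Replicate 1 had such a summit at 40 members (54.8%), against 41.6% of the genes of the other arms. Replicate 3 had it at 42 members (57.5%), against 43.2% of the genes of the other arms. In the whole list called from both replicates together, which goes on below the IDR threshold to 30000 summits, 55 members had a promoter summit (75.3%), against 62.4% elsewhere. The members lay above the other arms in each of these lists, and no test of the difference was made.

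Chromosome 4 genes are long and widely spaced, so the share was also taken among genes of like spacing or length. Among genes with no TSS of another protein-coding gene within 1000 bp, 27 of 54 members were bound (50%), against 24.4% of 7875 such genes of the other arms. Among genes with a neighbouring TSS that close, 15 of 19 members were bound (78.9%), against 66.6% on the other arms. Among genes longer than 5000 bp the distance was smaller, with 32 of 58 members bound (55.2%), against 47.3% of 3420 genes elsewhere. When each summit counted only for the gene of its nearest TSS, the count stayed at 42 members, while the share on the other arms came to 35.9%.

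The signal of the strongest promoter summit of the 42 bound members ran from 176 to 1501, with a median of 589 on the deposited scale of the thresholded list. The bound genes of the other arms had a median of 467. In ranks, where 1 is the strongest of the 6415 summits, the median was 1618.5 for bound members and 2404.5 for bound genes of the other arms. The peak regions had a median width of 588.5 bp at bound members and 546 bp at bound genes elsewhere. Bound members therefore ranged over nearly the whole list, from rank 76 to rank 6411.

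**Figure D1:**
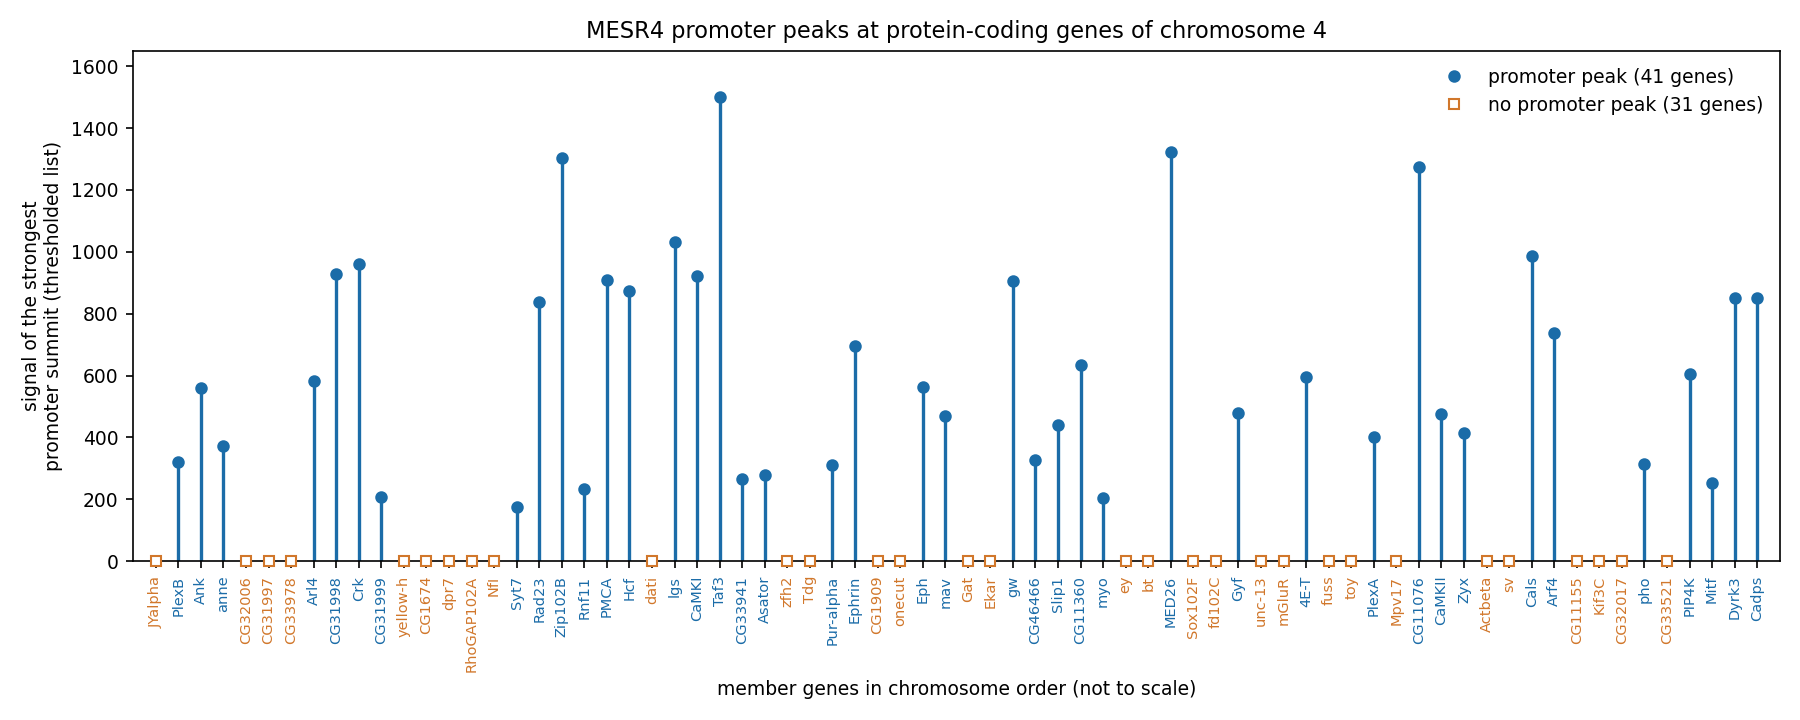
Signal of the strongest thresholded promoter summit (vertical axis, deposited scale, linear) for 72 of the 73 members in chromosome order (horizontal axis, gene order only). Filled circles on stems are 41 bound members, from 176 at Syt7 to 1501 at Taf3; open squares at 0 mark the 31 members without a promoter peak, which stand between bound genes along the whole chromosome.

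The strongest promoter peak of a member was at Taf3 (FBgn0026262), which encodes a subunit of the general transcription factor TFIID. Its summit lay at chr4:466686, in an untranslated exon 142 bp downstream of its TSS, with a signal of 1501. It ranked 76 in the thresholded list, 59 in replicate 1 and 145 in replicate 3. MED26, a subunit of the Mediator complex that links transcription factors to RNA polymerase II, came next with a signal of 1322 and ranks of 136, 167 in replicate 1 and 105 in replicate 3. Both encode parts of the general transcription machinery, and neither ranked below 167 in either replicate. Zip102B, a zinc transporter of the ZIP family, had a signal of 1304 and ranked 144 in replicate 1 and 204 in replicate 3. CG11076 had a signal of 1274 and ranked 198 in replicate 1 and 111 in replicate 3. Its summit lay 176 bp before its TSS and nearer to the TSS of the left-out gene ATPsynbeta, which overlaps it on the opposite strand and whose TSS is 107 bp from its own, so that peak cannot be assigned to CG11076 alone. A further summit, with a signal of 1064 at rank 308, lay inside CG11076 at chr4:1030771.

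The next 6 members by signal had signals between 908 and 1030. Legless (lgs), a cofactor that ties beta-catenin to transcription in Wnt signalling, had 1030 and ranked 419 in replicate 1 and 290 in replicate 3. Calsyntenin (Cals), a transmembrane protein of the cadherin superfamily, had 986 and ranked 275 in replicate 1 and 1229 in replicate 3. Crk, an adaptor protein in signalling to the cytoskeleton, had 960 and ranked 415 in replicate 1 and 515 in replicate 3. CG31998 had 929, the calcium/calmodulin-dependent kinase CaMKI had 922 and the plasma membrane calcium pump PMCA had 908. PMCA was another gene with unequal replicates, at rank 458 in replicate 1 and 1147 in replicate 3, whereas CaMKI stood at 512 in replicate 1 and 317 in replicate 3. Cals and PMCA thus ranked lower in replicate 3 and lgs and CaMKI ranked higher there, although none of the 4 ranked below 1229 in either.

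At the other end of the list were Syt7, a synaptotagmin of vesicle release, with 176 at rank 6411, and the TGF-beta family ligand myoglianin (myo), with 205 at rank 5741. CG31999 had 206 at rank 5715, the RING finger protein Rnf11 had 235 at rank 5153, and Mitf, a basic helix-loop-helix leucine zipper factor known for control of lysosome genes, had 253 at rank 4833. Syt7 therefore stood 4 ranks above the end of the thresholded list. Just below the end, Mpv17, which encodes a mitochondrial inner membrane protein, had its promoter summit at rank 6842 of the list from both replicates.

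All 42 bound members had a promoter summit in both replicate lists. Of them, 38 were within the top 6415 of both (90.5%), against 92.8% of bound genes of the other arms. A bound call already rests on a list kept for ranks that repeat between these replicates. The agreement of bound genes given here was therefore in part built in. Across the 42 members, the Spearman rho between the ranks in both replicates was 0.887, and it was 0.814 across 5819 bound genes of the other arms; these genes share libraries and are not independent samples. The 4 bound members that missed a replicate's top were Syt7 (rank 6831 in replicate 1 and 7082 in replicate 3), myo (7084 in replicate 1 and 3740 in replicate 3), CG31999 (6191 in replicate 1 and 11087 in replicate 3) and the Polycomb-recruiting DNA-binding protein pho (3107 in replicate 1 and 8031 in replicate 3). No unbound member was in the top of replicate 1. The top of replicate 3 held 3 of them, namely Mpv17 at rank 6239, the metabotropic glutamate receptor mGluR at 5372 and the thymine DNA glycosylase Tdg at 6361. The Tdg summit in replicate 3 is the one that Pur-alpha also has there, since the TSSs of these divergent neighbours are 162 bp apart.

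**Figure D2:**
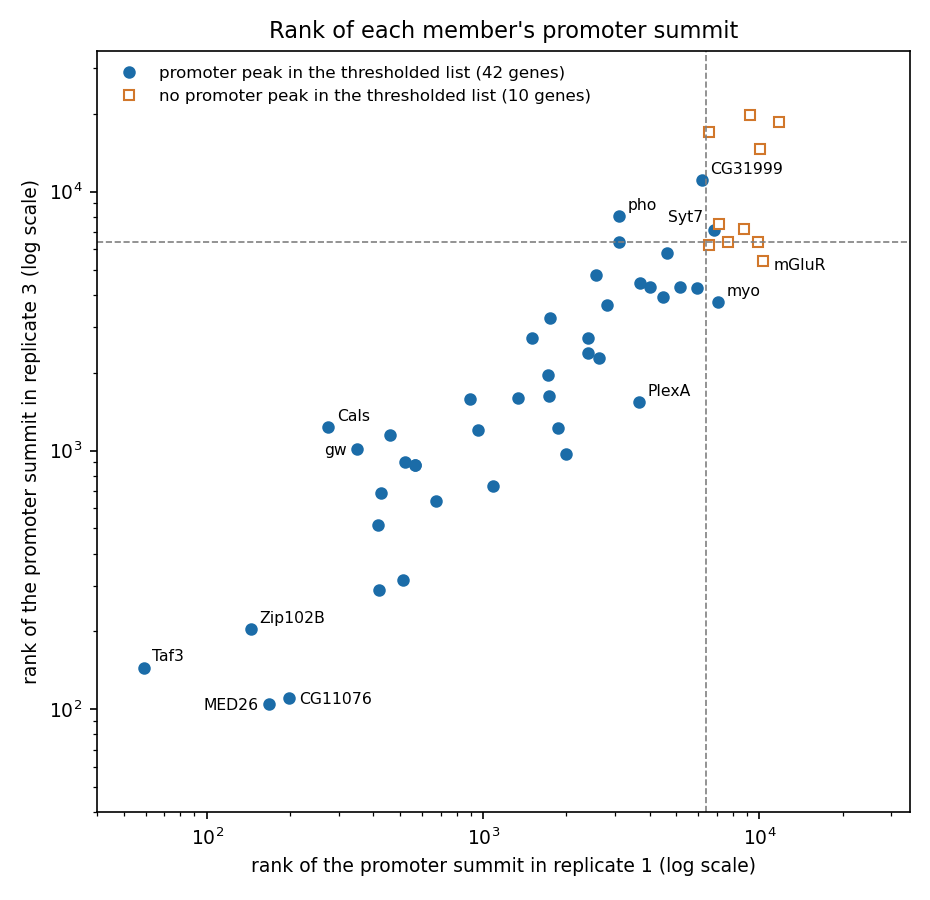
Rank of each member's strongest promoter summit in replicate 1 (horizontal axis, log scale) and in replicate 3 (vertical axis, log scale), for the 52 members with a summit in both lists. Filled circles are the 42 bound members (Dyrk3 and Cadps share a summit and overlap), open squares the 10 unbound ones, and dashed lines mark rank 6415; 38 bound members lie below both lines and no unbound member lies left of the vertical line.

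The 31 unbound members were not all alike. A promoter summit below the IDR threshold was found for 13 of them (41.9%) in the list from both replicates, against 34.7% of the 7914 unbound genes of the other arms, and 10 had a summit in both replicate lists. Of those 13, the strongest after Mpv17 were the eye master regulator eyeless (ey) at rank 7353 of the list from both replicates, the synaptic vesicle priming protein unc-13 at 7540, the homeodomain protein onecut at 8110, CG1909 at 8563 and mGluR at 8796. At the far end, 13 members had no promoter summit in any list. The 5 members whose TSSs lay farthest from any thresholded summit were JYalpha, a sodium/potassium pump subunit needed for male fertility, at 42825 bp, NfI, a nuclear factor I transcription factor, at 29413 bp, RhoGAP102A at 29064 bp, toy at 28527 bp and dati at 28172 bp. Of these 5, only RhoGAP102A had a promoter summit in the list from both replicates, at rank 13131.

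Sequences are shown for promoters at which a peak coincided with a DRE core or a Motif 1 core, and after them for promoters without a peak. Each runs 5′ to 3′ on the gene's strand, from 120 bases before the TSS of the canonical transcript to the first 30 bases transcribed, read from the release 6 (dm6) genome of RefSeq. Capitals mark matches on either strand to the DRE core (TATCGATA), CGATA (read TATCG on the other strand), the Motif 1 core (GGTCACAC), the Ohler motif 7 core (CAGCNCTA or CATCNCTA) and the GAGA element (GAGAG, read CTCTC on the other strand). The bound promoters were those of Taf3, MED26, the host cell factor homolog Hcf, the phosphatidylinositol kinase PIP4K, the semaphorin receptor PlexA, the repair and proteasome shuttle factor Rad23 and the DYRK-family kinase Dyrk3.
Taf3 (chr4:466799-466948, minus strand): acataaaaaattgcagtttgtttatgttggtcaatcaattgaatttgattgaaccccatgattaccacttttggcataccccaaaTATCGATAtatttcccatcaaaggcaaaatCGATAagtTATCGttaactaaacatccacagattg
MED26 (chr4:787585-787734, minus strand): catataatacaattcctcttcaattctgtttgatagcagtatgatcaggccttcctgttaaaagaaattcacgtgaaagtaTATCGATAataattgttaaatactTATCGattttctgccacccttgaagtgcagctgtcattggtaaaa
Hcf (chr4:359818-359967, plus strand): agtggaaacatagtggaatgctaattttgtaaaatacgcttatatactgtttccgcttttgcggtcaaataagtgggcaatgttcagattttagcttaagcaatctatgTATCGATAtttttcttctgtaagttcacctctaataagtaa
PIP4K (chr4:1196819-1196968, minus strand): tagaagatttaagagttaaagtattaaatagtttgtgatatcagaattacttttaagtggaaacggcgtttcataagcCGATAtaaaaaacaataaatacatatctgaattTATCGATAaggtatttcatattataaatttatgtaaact
PlexA (chr4:1027072-1027221, minus strand): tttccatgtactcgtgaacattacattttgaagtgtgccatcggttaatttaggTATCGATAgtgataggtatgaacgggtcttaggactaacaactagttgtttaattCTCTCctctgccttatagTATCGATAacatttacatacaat
Rad23 (chr4:307973-308122, plus strand): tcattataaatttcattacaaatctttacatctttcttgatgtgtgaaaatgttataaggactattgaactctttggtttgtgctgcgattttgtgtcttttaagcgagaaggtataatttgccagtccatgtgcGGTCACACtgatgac
Dyrk3 (chr4:1230684-1230833, minus strand): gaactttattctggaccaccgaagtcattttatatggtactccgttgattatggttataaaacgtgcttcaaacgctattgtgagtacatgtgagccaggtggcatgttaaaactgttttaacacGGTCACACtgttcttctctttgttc

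The unbound promoters shown were those of the activin-type ligand Actbeta, whose promoter holds the DRE core found in an unbound member, of the transcription factors zfh2, toy and onecut, and of unc-13.
Actbeta (chr4:1084767-1084916, minus strand): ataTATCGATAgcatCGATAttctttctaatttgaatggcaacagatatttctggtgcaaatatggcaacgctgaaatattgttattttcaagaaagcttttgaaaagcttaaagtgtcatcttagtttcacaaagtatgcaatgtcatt
zfh2 (chr4:501690-501839, plus strand): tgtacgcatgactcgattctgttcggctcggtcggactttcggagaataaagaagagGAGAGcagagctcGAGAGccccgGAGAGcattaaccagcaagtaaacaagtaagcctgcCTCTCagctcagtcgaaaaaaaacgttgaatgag
toy (chr4:989605-989754, plus strand): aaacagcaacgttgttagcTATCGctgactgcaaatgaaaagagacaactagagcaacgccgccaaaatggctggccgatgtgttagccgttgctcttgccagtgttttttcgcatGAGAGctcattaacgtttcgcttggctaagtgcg
onecut (chr4:607620-607769, minus strand): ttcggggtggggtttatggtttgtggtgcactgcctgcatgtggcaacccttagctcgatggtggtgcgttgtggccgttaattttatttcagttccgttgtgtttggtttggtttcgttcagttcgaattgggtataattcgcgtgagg
unc-13 (chr4:893536-893685, minus strand): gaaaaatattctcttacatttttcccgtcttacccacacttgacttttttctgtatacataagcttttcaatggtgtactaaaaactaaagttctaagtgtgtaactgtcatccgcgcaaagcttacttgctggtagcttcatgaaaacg

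From 250 bases before to 50 after the canonical TSS, the DRE core was present at 9 of 42 bound members (21.4%) and at 1 of 31 unbound members (3.23%). On the other arms it was present at 18.1% of bound and 2.30% of unbound genes, and 9.01% of all protein-coding promoters hold it. The 9 bound members were Crk, PMCA, Hcf, Taf3, Eph, MED26, PlexA, PIP4K and Cadps, and the unbound one was Actbeta. Counted with the TSS as 0, the DRE cores of the bound members began between -66 and 26, with PlexA holding copies at -66 and 7, whereas the copy of Actbeta began at -117. Taf3, MED26 and Hcf, printed above, had theirs at -35, -39 and -11, and their summits lay 177, 162 and 223 bp downstream of the start of the motif. Across the DRE copies of the 8 bound members other than Cadps, the summit lay 115 to 392 bp downstream of the motif. Cadps has its strongest summit near another TSS, so its motif and that summit do not lie at the same promoter.

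Bound members with the DRE core also had a higher median signal than bound members without it. The median signal was 872 in the 9 with the motif (402 to 1501) and 480 in the 33 without it (176 to 1304). The 9 include Cadps, counted with 851 for its summit near another TSS. The Cadps summit near the TSS with the motif had 370. On the other arms the corresponding medians were 482 in 1055 bound genes with the DRE core and 464 in 4785 without it. The ranges overlapped widely, the holders are few, and no test was made of the difference between the chromosomes.

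CGATA, the core recognised by the insulator protein BEAF-32 and contained in every DRE core, was present at 30 of 42 bound members (71.4%) and 9 of 31 unbound members (29.0%). It was present at 61.2% of bound and 35.9% of unbound genes of the other arms, and at 46.7% of all promoters. Among promoters without a DRE core, it was at 21 of 33 bound members (63.6%) and 8 of 30 unbound members (26.7%), against 52.6% of bound and 34.4% of unbound genes of the other arms. Among the members, the Motif 1 core occurred at Rad23 and Dyrk3 alone, 2 of 42 bound members (4.76%) and 0 of 31 unbound ones, against 16.3% of bound and 1.23% of unbound genes of the other arms and 7.60% of all promoters. At Rad23 and Dyrk3 the motif began at 15 and 5, just inside the transcribed sequence.

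The Ohler motif 7 core was at 4 of 42 bound members (9.52%) and 3 of 31 unbound members (9.68%), whereas the other arms had it at 16.5% of bound and 4.66% of unbound genes; 9.68% of all promoters hold it. The GAGA element was at 7 bound members (16.7%) and at 10 unbound members (32.3%), against 23.9% of bound and 34.7% of unbound genes of the other arms and 30.1% of all promoters. Its unbound holders included zfh2, with several copies in the sequence above, ey, toy, sv and fd102C. The initiator core TCAGT was at 35.7% of bound and 51.6% of unbound members, against 43.4% of bound and 58.0% of unbound genes elsewhere and 51.7% of all promoters. The TATA box TATAAA was at 42.9% of bound and 38.7% of unbound members, beside 44.9% of all promoters. The E-box CACGTG was at 1 bound member, MED26, and 1 unbound member, Sox102F, beside 4.29% of all promoters. These are matches of letters on either strand and do not show that a factor was present. For these shares a match counted at any position in the window, also for the initiator core and the TATA box. How many matches base composition alone would give was not estimated.

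**Figure D3:**
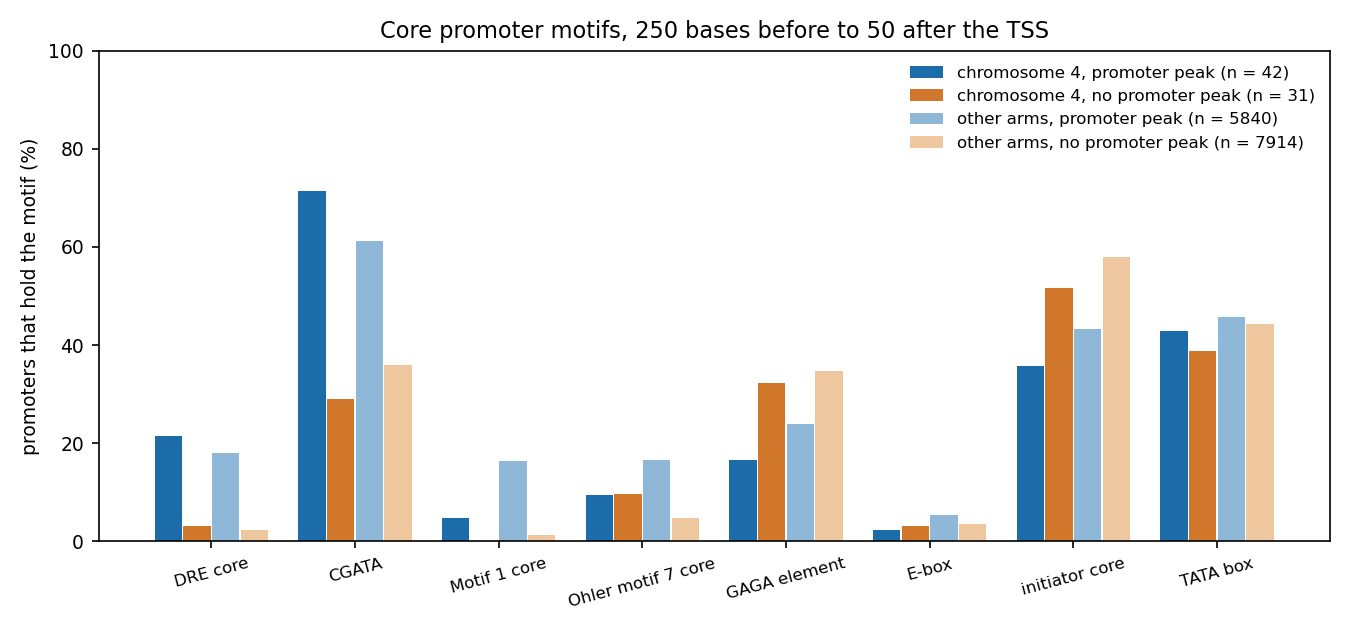
Share of promoters (vertical axis, %) that hold each of 8 short motifs (horizontal axis) between 250 bases before and 50 after the canonical TSS. Bars stand for bound members (n = 42), unbound members (n = 31), bound genes of the other arms (n = 5840) and unbound genes of the other arms (n = 7914); the DRE core stood at 21.4% in bound and 3.23% in unbound members, and Motif 1 at 4.76% in bound and 0% in unbound members.

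Promoters of bound members were lower in GC content than those of unbound members. The median was 32.0% in bound and 37.0% in unbound members, and 36.3% in bound and 40% in unbound genes of the other arms. The unbound promoter of ey stood highest among the members, at 55.0%, and the bound promoter of Zip102B lowest, at 20.3%. Bound members had a median length of 9257 bp and unbound members 11318 bp, whereas the order was the other way on the other arms, with 2697 bp in bound and 1824 bp in unbound genes. The nearest TSS of another protein-coding gene was at a median of 1623 bp from bound and 4140 bp from unbound members. The order was the same on the other arms, with 407 bp from bound and 2137 bp from unbound genes. More than 1 TSS was annotated for 21 of 42 bound members (50%) and 12 of 31 unbound members (38.7%), beside 34.4% of bound and 20.9% of unbound genes of the other arms. An annotated transposable element lay within 1000 bp of the canonical TSS at 19 bound members (45.2%) and 18 unbound members (58.1%), beside 3.70% of bound and 5.95% of unbound genes of the other arms. The sources used here do not say how reads with several map positions were handled, and the part of base composition, length and repeats in the calls was not tested.

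Summits of bound members lay downstream of the TSS. The median offset from the nearest TSS of the gene was 132.5 bp downstream in the 42 bound members and 61 bp in bound genes of the other arms. The summit was downstream at 37 of 42 bound members (88.1%) and more than 100 bp downstream at 26 (61.9%), against 65.5% downstream and 36.9% beyond 100 bp on the other arms. Because a summit can also belong to a neighbouring promoter, genes with no other TSS within 1000 bp were also taken alone. The summit was then downstream at 26 of 27 members (96.3%) and at 80.5% of 1925 genes of the other arms. The median offset was 124 bp in these members and 79 bp in these genes of the other arms. Replicate 1 alone gave 142 bp in members and 94 bp in other genes of this kind, and replicate 3 alone gave 103 bp in members and 53 bp in the other genes.

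The replicates themselves differed in position. Over the 38 bound members in the top of both replicates, the summits of replicates 1 and 3 were a median of 39 bp apart, and 32 of the 38 pairs were within 100 bp. The bound genes of the other arms had a median of 38 bp between the replicate summits and 83.2% within 100 bp. By offset from the nearest TSS of the gene, the replicate 1 summit was the farther downstream at 27 of the 38 members (71.1%). The share was 62.7% in the genes of the other arms. Where a gene has several TSSs, the nearest TSS can differ between the replicates. The difference between the medians of isolated genes, members minus other arms, was 45 bp in the thresholded list, 48 bp in replicate 1 and 50 bp in replicate 3, and no test of it was made. By the annotation, 24 of the 42 summits were in an untranslated exon, 9 in an intron, 7 in a coding exon and 2 before the gene.

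**Figure D4:**
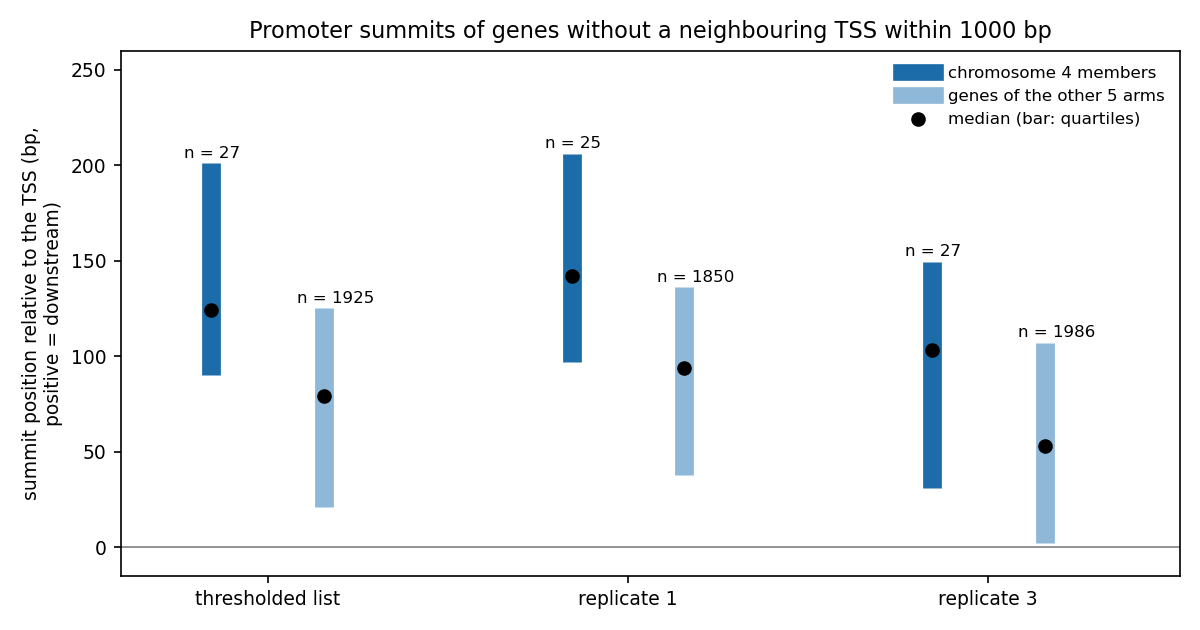
Position of the strongest promoter summit relative to the nearest TSS of the gene (vertical axis, bp, positive downstream) for bound genes with no other protein-coding TSS within 1000 bp, in the thresholded list and in the top of each replicate. Black points are medians and bars span the quartiles; the members' medians of 124, 142 and 103 bp lie above those of the other arms, 79, 94 and 53 bp, and the bars overlap.

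By function, the largest group was transcription and chromatin, and 6 of its 16 listed members were bound (37.5%), beside 42 of 73 over all members and 42.5% on the other arms. The lists are not complete, and Taf3 is on none of them; with Taf3 this group had 7 of 17 bound (41.2%). Its bound members were Hcf, lgs, MED26, pho, Mitf and Pur-alpha, with a median signal of 593, beside 589 over all bound members. Hcf, the homolog of host cell factor that acts in chromatin-modifying complexes, had a signal of 872 and ranked 521 in replicate 1 and 899 in replicate 3. Pur-alpha, a single-strand DNA- and RNA-binding protein, had 310, and pho had 314. The unbound ones were mostly sequence-specific developmental regulators. They were the Pax6 genes ey and toy, the Pax gene sv, the Sox gene Sox102F, the forkhead gene fd102C, zfh2, onecut, the zinc finger gene dati, NfI and fuss, a member of the Ski/Sno family. Of these 10, a summit below the threshold was listed from both replicates for ey, onecut and zfh2, the last at rank 13697, toy had a summit in replicate 1 alone, at rank 27775, and sv, Sox102F, fd102C, dati, NfI and fuss had none in any list.

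Of the 11 genes of synapse and neuronal signalling, 5 were bound (45.5%), beside 57.5% of all members and 42.5% on the other arms. The bound ones had a median signal of 908. They were PMCA, CaMKI, Cals, Syt7 and Cadps, the last a protein that primes dense-core vesicles. Cadps and its divergent neighbour Dyrk3, whose TSSs are 124 bp apart, share a summit at chr4:1230614 with a signal of 851, which ranked 564 in replicate 1 and 882 in replicate 3. It lay 99 bp downstream of the Dyrk3 TSS and 223 bp before that of Cadps. Cadps also had a summit of its own at chr4:1232078, with a signal of 370, 195 bp from another of its TSSs. The unbound synaptic genes were unc-13, mGluR, the kainate-type glutamate receptor gene Ekar, the immunoglobulin-domain gene dpr7, the GABA transporter Gat and the kinesin Kif3C. Gat and Kif3C had no promoter summit in any list.

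All 4 axon guidance genes were bound, beside 57.5% of all members and 42.5% on the other arms. Their median signal was 483. The receptor tyrosine kinase Eph had 563 and ranked 1507 in replicate 1 and 2729 in replicate 3. Its ligand Ephrin had 695 and ranked 897 in replicate 1 and 1575 in replicate 3. Of the semaphorin receptors, PlexA had 402 and PlexB 319. PlexA ranked higher in replicate 3 (1535) than in replicate 1 (3667), whereas PlexB stood at 4276 in replicate 3 and 4012 in replicate 1. The summits of Eph and Ephrin lay far into the gene, 336 and 331 bp downstream of the TSS, so both calls were lost with a window of 250 bp.

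The 3 ligands of the TGF-beta family differed. Maverick (mav) was bound with a signal of 468, at rank 2624 in replicate 1 and 2273 in replicate 3, and myo was bound near the end of the list. Actbeta had no thresholded peak, although it had summits at rank 6576 in replicate 1 and 16984 in replicate 3, and its nearest thresholded summit was 23976 bp away. The 3 genes of RNA regulation were all bound, beside 57.5% of all members and 42.5% on the other arms. Their median signal was 595. They were gw, which encodes the GW182 protein of microRNA silencing, with 906, the translational repressor 4E-T with 595, and Gyf, a GYF-domain protein, with 480. The gw summit stood higher in replicate 1, at rank 349 against 1015 in replicate 3, and 4E-T higher in replicate 3, at 967 against 2001 in replicate 1.

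In each of the remaining groups most listed genes were bound, beside 57.5% of all members and 42.5% on the other arms. The 4 genes listed as kinases, a list that holds neither Eph nor CaMKII, were all bound, with a median of 728, led by CaMKI with 922 and Dyrk3 with 851, then PIP4K with 605 and the tau-tubulin kinase Asator with 280. All 5 genes of membrane traffic and transport were bound. Among them, Zip102B had 1304, the small GTPase Arf4 had 736, the GTPase Arl4 had 582 and the P-type ATPase anne had 374. Of the 4 genes of cytoskeleton and muscle, Crk (960), the spectrin-binding ankyrin Ank (560) and the focal adhesion protein Zyx (416) were bound, and the giant muscle protein gene bent (bt) had no promoter summit in any list. The Zyx summit also lies in the window of the left-out gene apolpp, whose TSS is 51 bp from a TSS of Zyx. In DNA repair and protein turnover, Rad23 (837) and Rnf11 (235) were bound and Tdg was not. CaMKI is counted in 2 of the groups. In all, 33 of 52 genes in any group and 9 of the other 21 were bound. Besides Taf3, CG11076, CG31998 and CG31999, those 9 were CG11360 with 634, CaMKII, a calcium/calmodulin-dependent kinase of learning and synaptic plasticity, with 476, Slip1 with 439, CG46466 with 326 and CG33941 with 264. The 12 unbound genes outside the groups were JYalpha, RhoGAP102A, Mpv17, yellow-h, CG1674, CG1909, CG11155, CG31997, CG32006, CG32017, CG33521 and CG33978. The groups are small, so the shares describe these genes only.

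**Figure D5:**
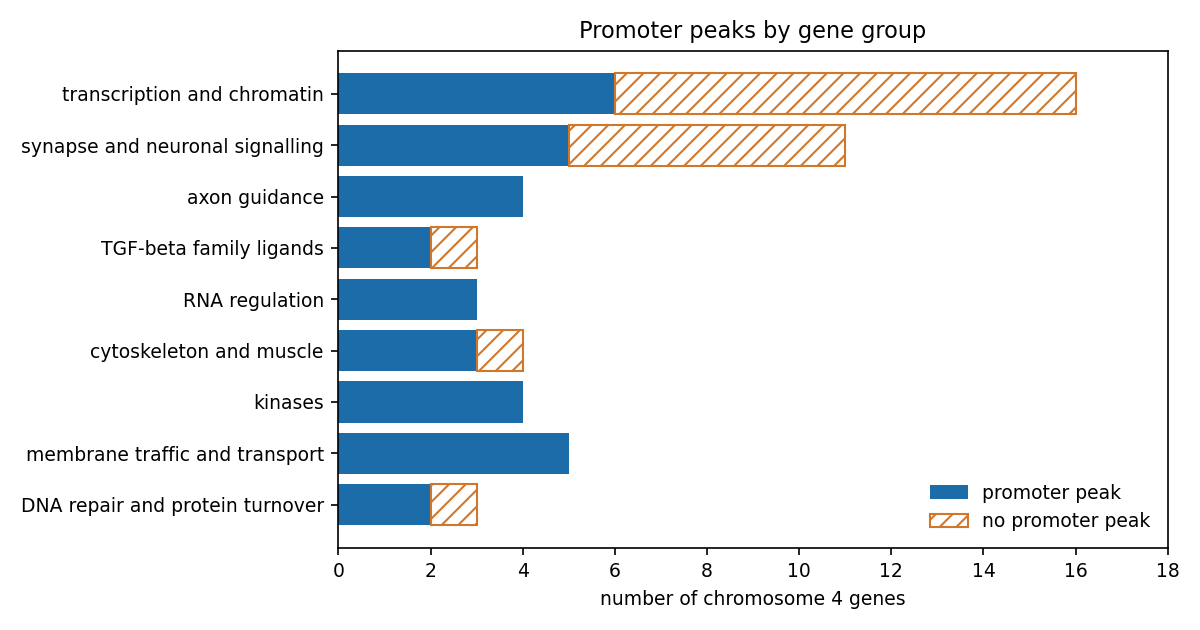
Number of chromosome 4 genes (horizontal axis) with (filled) and without (hatched) a promoter peak in the thresholded list, for the 9 gene groups (vertical axis). Transcription and chromatin had 6 of 16 genes bound and synapse and neuronal signalling 5 of 11, whereas axon guidance, RNA regulation, kinases and membrane traffic had all of their 4, 3, 4 and 5 genes bound. Over all members 57.5% were bound, and on the other arms 42.5%.

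Bound and unbound members alternated along the chromosome in 30 runs, 15 of each kind. These runs skip the left-out genes, all of them bound; with those put back there were 32 runs, 16 of each kind, since eIF4G1 parts unc-13 from mGluR. The longest run of bound neighbours held 6 genes, Syt7, Rad23, Zip102B, Rnf11, PMCA and Hcf, whose TSSs span chr4:305818-359938 (dm6). Within it the signal ran from 176 at Syt7 to 1304 at Zip102B, so neighbours in a run were not alike in strength. The longest run of unbound neighbours held 5 genes, yellow-h, CG1674, dpr7, RhoGAP102A and NfI, with TSSs at chr4:227922-276369, directly before it. With the left-out genes put back, both runs were as long as before, and PlexB, Ank and anne with ci, RpS3A and pan made another bound run of 6. The outermost members were the unbound JYalpha, with its TSS at chr4:879, and the bound Cadps, whose canonical TSS is at chr4:1231883. In 5 equal lengths between them, the bound members were 8 of 14, 11 of 15, 9 of 17, 3 of 8 and 11 of 19. These counts leave out the bound left-out genes. Of those, ci, RpS3A and pan lie in the first length, ND-49 in the third, eIF4G1 in the fourth and ATPsynbeta and apolpp in the fifth. The fourth length held the fewest members and the lowest share of members bound (37.5%). MED26, Gyf and 4E-T were bound there among long unbound genes such as unc-13 and Sox102F. The second length held the highest share (73.3%), beside 57.5% over all members and 42.5% on the other arms. With 8 to 19 members per length, no test among the lengths was made.

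The thresholded list held 77 summits on chromosome 4, and 53 of them lay in a promoter window of a member, 3 of these also in that of a left-out gene. A further 6 lay at left-out genes alone. More than 1 thresholded promoter summit was found for 12 of the 42 bound members (28.6%). This count was not made on the other arms, and a gene with more TSSs has more windows. Of the other 18 summits, 4 lay within 500 bp of the start of a non-coding gene alone and 14 near no annotated gene start. The strongest of these 18 was at chr4:960013, with a signal of 1074 and rank 303, near the start of asRNA:CR44030 and outside every member gene. The 14 summits near no gene start had signals from 178 to 384, and the other summits at non-coding starts from 187 to 255. Of the 77 summits, 4 lay inside an annotated transposable element.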

How the data were processed

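The labels describe ChIP-seq of MESR4-GFP in 2 replicates of 1 group of embryos. Per the listing deposited with each sample, the authors called peaks for each replicate against 1 control alignment and for both replicates together, and kept a list under an IDR threshold. The deposited signal value of each summit is the authors' enrichment measure, scaled per list, so lists were compared by rank. Aligner, peak caller, IDR threshold and depth are not stated in the sources used here. The thresholded list held 6415 summits, and 6415 of them were the strongest of the list from both replicates, which like each replicate list held 30000. Deposited dm6 coordinates are given from 1.

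Ensembl release 115 gave genes and TSSs, and the RefSeq release 6 genome gave sequence, in which the first codon read as a start codon at 73 of 73 members. The 111 protein-coding histone cluster genes were left out. The signal of a gene was that of its strongest summit within 500 bp of any TSS, so 1 summit can count for several genes. Genes were ordered by the TSS of the canonical transcript, which also set the window for motifs and GC content. All results are descriptions, since 1 group allows no test between conditions. Shares have exact 95% Clopper-Pearson intervals, which cover counting error only. The members, the 9 gene groups, the 8 motifs and the rule for named genes were chosen with earlier results of these data known. The rule named the 10 strongest and 5 weakest bound members, members whose call differed in a replicate, the 5 unbound members farthest from a summit, all genes of the groups, the longest runs and the end members; other genes and summits were named after their values were seen. The values of 1 bound member are not reported here, although it enters the counts. Older symbols of Arf4, Tdg and Cadps were matched to current ones. Alternatives were windows of 250 and 1000 bp, the 3207 strongest summits, each replicate alone, the whole list, the nearest or the canonical TSS alone, genes without a neighbouring TSS and another motif window; long genes, all 80 genes, isolated genes for the offset, the other arms' ranks and offsets, runs over all 80 genes and the transcription group with Taf3 were added after seeing the data. Scripts ran in Python 3.11.15 with numpy 2.4.6, scipy 1.17.1 and matplotlib 3.10.9 and were tested on simulated data.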

Additional observations from a re-analysis of the deposited data

How the results depend on the processing

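The share of bound members stayed above that of the other arms under every alternative run on both. With the 3207 strongest summits it was 41.1% of members and 27.3% of other genes, and with the whole list from both replicates 75.3% and 62.4%. The members' share stayed within its interval with the other settings. It was 50.7% against 38.5% on the other arms with 250 bp, and 60.3% against 45.2% with 1000 bp. With the nearest TSS it was 57.5% against 35.9%, and with the canonical TSS alone 49.3% against 39.9%. Without a neighbouring TSS it was 50% against 24.4%, and in genes longer than 5000 bp 55.2% against 47.3%. With 1 replicate left out it was 54.8 to 57.5% against 41.6 to 43.2%. The shares stood closest in the long genes, and then with the canonical TSS alone. The members' median rank was 1528 with 250 bp, 791.5 with the 3207 strongest summits and 1584 to 1610.5 with 1 replicate left out; for the other arms it was 2488 with 250 bp, 2240 with 1000 bp, 1501.5 with the 3207 strongest and 2404 to 2412.5 with 1 replicate left out. The members' median offset was 101 to 142.5 bp with 1 replicate left out, and the other arms' was 30 bp with 1000 bp. Motifs within 100 bases on either side of the TSS were counted for members alone, so no share over all promoters stands beside them. In that window the DRE core was at 0% of unbound members. The GAGA element was at 7.14% of bound (3 of 42) and 19.4% of unbound members (6 of 31). The TATA box was at 40.5% of bound and 25.8% of unbound members, against 42.9% and 38.7% in the main window. The cause of these shifts was not tested.

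Of single members, 25 were bound and 18 unbound under each of 8 alternatives to the thresholded list and window. A window of 250 bp lost Pur-alpha, Ephrin, Eph, pho and Mitf; 1000 bp added Tdg and ey; the canonical TSS alone lost Ank, CG31999, CaMKI, Pur-alpha, Zyx and Mitf. No paired analysis was possible because there was only 1 group.

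Read depth is unknown here, so no summit can be called absent, and 2 replicates of 1 group give no error for a share. The intervals treat neighbouring genes as independent, although some share a summit.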
